A study of Homo sapiens with 4 samples.

Results

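The genes described here code for the cyclins, kinases and 7SK particle proteins that control the release and elongation of RNA polymerase II. The 9 genes were picked by symbol, as members of these complexes, with earlier results of these data known: the cyclin genes CCNT1, CCNT2 and CCNK, the kinase genes CDK12 and CDK13, and the 7SK particle genes HEXIM1, HEXIM2, LARP7 and MEPCE. All 9 were found among the 23615 genes of the table, and all 9 passed the filter on low counts, as did 14555 genes in all. The cells were HEK293T, a human embryonic kidney line, carrying a stable Flag-SIRT7 construct at passage 10 to 15. Both groups came from these Flag-SIRT7 cells and received no other treatment named in the labels. The input group (2 libraries) held total cellular RNA, and the RIP group (2 libraries) held RNA recovered from lysates on anti-Flag M2 gel, an RNA immunoprecipitation that pulls down a tagged protein with the RNA attached to it. Ribosomal RNA was depleted from both. Whether the line is 1 clone, and whether a group's 2 libraries are separate cultures, the labels leave unsaid. The p-values then measure only the spread between these libraries, which may be technical. An untagged control pull-down was not analysed here, so RIP values include any RNA that sticks to the gel.

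SIRT7 is a nucleolar and nuclear lysine deacylase that needs NAD. Soon after initiation RNA polymerase II pauses, held by the factors DSIF and NELF, until the kinase P-TEFb phosphorylates them and the tail of the polymerase. P-TEFb is CDK9 bound to cyclin T, encoded by CCNT1 or CCNT2. A large share of P-TEFb is kept inactive on the 7SK small nuclear RNA, where HEXIM1 or HEXIM2 inhibits the kinase, MEPCE caps the RNA at its start and LARP7 holds its end. CDK12 and CDK13, each paired with cyclin K from CCNK, phosphorylate the polymerase tail further along the gene. The measurements below are of the mRNAs of these proteins, not of the proteins, and the 7SK RNA itself was not analysed here.

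The libraries held 18131602 and 17310753 fragments in input and 25655455 and 25998032 in RIP. Of 7 genes listed for HEK293T, 6 had a mean input level above 1 FPKM (fragments scaled for transcript length and library), and PAX2 stood at 0.0801 and 0.154 FPKM. Of 8 genes of other cell types 3 passed the count filter, their summed level was 2.64 to 2.70 FPKM in input and 3.37 to 4.06 in RIP, and CD3E and MYH2 were at 0 in every library. The bait gene SIRT7 was 37.4-fold higher in RIP, and its fragments include those of the transgene. In RNA pooled from many cells, a change in the number of cells that hold an mRNA and a change in the amount per cell cannot be told apart.

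The mRNAs of both cyclin T genes, both CDK12-type kinases and HEXIM1 fell in RIP relative to input, while HEXIM2 and MEPCE rose. In CPM, fragment counts as a share of the library scaled by TMM factors, which set the bulk of genes to no change, 5 of the 9 genes were lower and 2 higher, and CCNK and LARP7 passed on neither side (edgeR quasi-likelihood test, Benjamini-Hochberg adjusted p under 0.05 over all 14555 genes). Over all tested genes 39.7% were lower and 38.0% higher by the same rule, 77.7% together, so a call alone does not set a gene apart. The median log2 fold change of the 9 genes was -0.48, against -0.03 over all tested genes. The fold changes ran from -1.83 for CCNT2 to 1.51 for HEXIM2.

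Scaling and transcript length both bear on these directions. When only the library totals were used for scaling, the median of all genes moved to -0.76, and 7 of the 9 genes were lower and 1, HEXIM2, was higher, against 65.5% and 17.0% of all genes (82.6% together). Relative to all genes the median of the 9 was -0.45 on either scale. In these libraries the fold change fell with effective length, which was computed by dividing the scaled fragments by FPKM and is given relative to the median tested gene (Spearman rho = -0.60 over 14555 genes, which share libraries and depth and are not independent replicates). With this trend taken out by an offset per gene and library, 4 of the 9 genes were higher and 3 lower, against 34.4% and 35.9% of all tested genes (70.3% together), and the median was -0.18 against -0.04 over all genes. HEXIM2 and MEPCE were called higher and CCNT1 and CCNT2 lower both before and after the length correction. CDK12 and CDK13 turned from lower to higher, a turn made by 563 of the 5783 genes called lower over the whole table (9.74%). HEXIM1 lost its call, and LARP7 was then called lower.

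**Figure D1:**
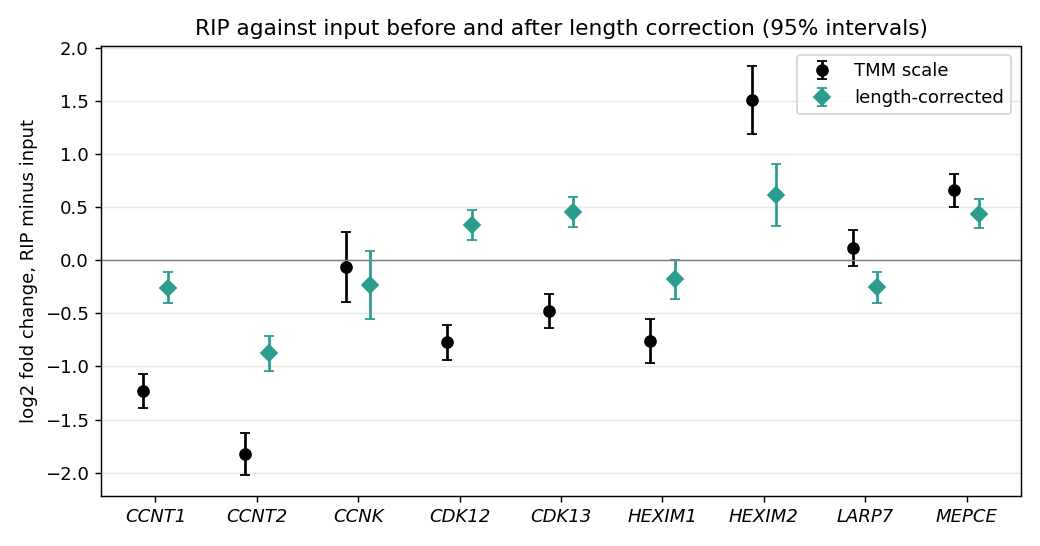
Log2 fold change of RIP over input for each of the 9 genes on the TMM scale (black circles) and after length correction (green diamonds), with bars for the 95% interval of the edgeR fit on 2 against 2 libraries. CCNT1 and CCNT2 stay below 0 and HEXIM2 and MEPCE above 0 in both, CDK12 and CDK13 lie below 0 before and above 0 after correction, and with library totals (not drawn) MEPCE was at -0.07.

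The cyclin T genes were the most depleted. CCNT1, the main cyclin partner of CDK9, had 122.1 and 115.6 CPM in the input libraries and 52.8 and 48.7 CPM in the RIP libraries. Both RIP libraries lay well below both input libraries. It was 2.34-fold lower in RIP (log2 fold change -1.23, SE 0.0754, edgeR adjusted p = 5.242e-10). CCNT2, whose product is the alternative cyclin partner of CDK9, had 68.3 and 60.2 CPM in input and 18.0 and 18.3 CPM in RIP. Both RIP values were close together and far below both input values. It was 3.54-fold lower (log2 fold change -1.83, SE 0.0926, edgeR adjusted p = 5.754e-11), at percentile 5.90 of the fold changes of all tested genes. The transcripts have nearly the same effective length, 2.56 and 2.497 times the median gene. After length correction CCNT1 was at -0.26 (edgeR adjusted p = 0.003309) and CCNT2 at -0.88 (edgeR adjusted p = 3.351e-08). CCNT2 was then still the lowest of the 9, at percentile 14.6 of all tested genes. CCNT1, at percentile 37.8, was close to LARP7 at -0.25 and CCNK at -0.23.

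CCNK, the cyclin of CDK12 and CDK13, was the least abundant of the 9 genes by fragments in RIP. It had 249 and 182 fragments in input and 164 and 198 in RIP, or 10.6 and 8.23 CPM against 8.23 and 9.81 CPM. The second input library and the first RIP library had practically the same CPM, and the groups overlapped. Its log2 fold change was -0.06, with a 95% interval of -0.39 to 0.27 (edgeR adjusted p = 0.7205), the widest interval of the 9 genes. Leaving out single libraries turned its sign, to 0.13 without the first input library and to 0.07 without the first RIP library, both with no call. With library totals it was called lower at -0.79. In RefSeq (GRCh38.p14, another build than the hg19 of the files) CCNK overlaps SETD3 and CCDC85C, and the strand setting of the counting is not given in the sources used here. Their log2 fold changes were -0.39 and 0.62, and whether fragments of these neighbours enter the CCNK value was not tested.

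Both kinase genes fell on the TMM scale, and both stood higher after length correction. CDK12, whose product phosphorylates the polymerase tail on elongating genes, had 133.2 and 120.6 CPM in input and 77.2 and 71.4 CPM in RIP. CDK13, its close relative, had 72.1 and 71.3 CPM in input and 50.03 and 52.7 CPM in RIP. In both genes the RIP libraries were below the input libraries with no overlap. CDK12 was 1.71-fold lower (log2 fold change -0.77, SE 0.0767, edgeR adjusted p = 1.617e-07). CDK13 was 1.40-fold lower (-0.48, SE 0.0746, edgeR adjusted p = 2.395e-05). These are long transcripts, at 3.01 and 2.47 times the median gene, and 95.7% and 91.8% of tested genes were no longer than they. Relative to other transcripts of their length they stood higher, at 0.33 (edgeR adjusted p = 0.0002864) and 0.45 (edgeR adjusted p = 1.665e-05).

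Of the HEXIM genes, which code for the P-TEFb inhibitors of the 7SK particle, 1 fell and the other rose. HEXIM1 had 46.3 and 39.1 CPM in input and 25.0 and 25.5 CPM in RIP. The RIP values were alike and below both input values. It was 1.69-fold lower (log2 fold change -0.76, SE 0.0961, edgeR adjusted p = 2.696e-06). HEXIM2 had 111 and 143 fragments in input and 319 and 317 in RIP, or 4.72 and 6.46 CPM against 16.01 and 15.7 CPM. Its RIP libraries were more than double the higher input library, and the input libraries differed by more than the RIP libraries did. It was 2.84-fold higher (log2 fold change 1.51, SE 0.148, edgeR adjusted p = 1.428e-07), which placed it at rank 1205 from the top among 14555 genes. Leaving out single libraries gave 1.29 to 1.77.

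By effective length HEXIM1 is 1.71 and HEXIM2 0.42 times the median gene. After length correction HEXIM1 was at -0.18, with a 95% interval of -0.36 to -0.00067 and no call (edgeR adjusted p = 0.06827), and HEXIM2 was at 0.61 (SE 0.139, edgeR adjusted p = 0.0008535). The genes lie side by side, with 0 protein-coding genes between them in RefSeq, where the antisense gene HEXIM2-AS1 overlaps both. HEXIM2-AS1 was not analysed here.

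The genes of the constitutive 7SK proteins had the highest levels of the 9 per length, in FPKM (values below), though not in CPM. MEPCE, the capping methyltransferase of 7SK RNA, had 66.8 and 71.1 CPM in input and 112.2 and 105.4 CPM in RIP. The RIP libraries were above the input libraries with no overlap. It was 1.58-fold higher (log2 fold change 0.66, SE 0.0733, edgeR adjusted p = 6.199e-07), at 0.44 after length correction (edgeR adjusted p = 1.314e-05) and at -0.07 with library totals, without a call (edgeR adjusted p = 0.3553). LARP7, the La-related protein that stabilises 7SK RNA, had 46.8 and 49.1 CPM in input and 51.5 and 52.3 CPM in RIP. The RIP values lay just above the input values. Its log2 fold change was 0.11, with a 95% interval of -0.05 to 0.28 (edgeR adjusted p = 0.1864). It turned to -0.25 after length correction (edgeR adjusted p = 0.003585) and to -0.62 with library totals (edgeR adjusted p = 2.656e-06). RefSeq lists 4 LARP7 pseudogenes and 1 of CCNT2, and how fragments with several positions were assigned is not given in the sources used here. The 5 microRNA genes of the table that lie within LARP7 had 0 fragments in every library.

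Across the 9 genes the libraries of the groups did not overlap for 8, the exception being CCNK. RIP was above input for 3 and below it for 5, against 43.7% and 45.5% of all tested genes (89.2% together). Among the 9 genes the longer transcripts had the lower fold changes (Spearman rho = -0.90, n = 9 genes from the same libraries, given as a description), and after correction rho was -0.38.

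**Figure D2:**
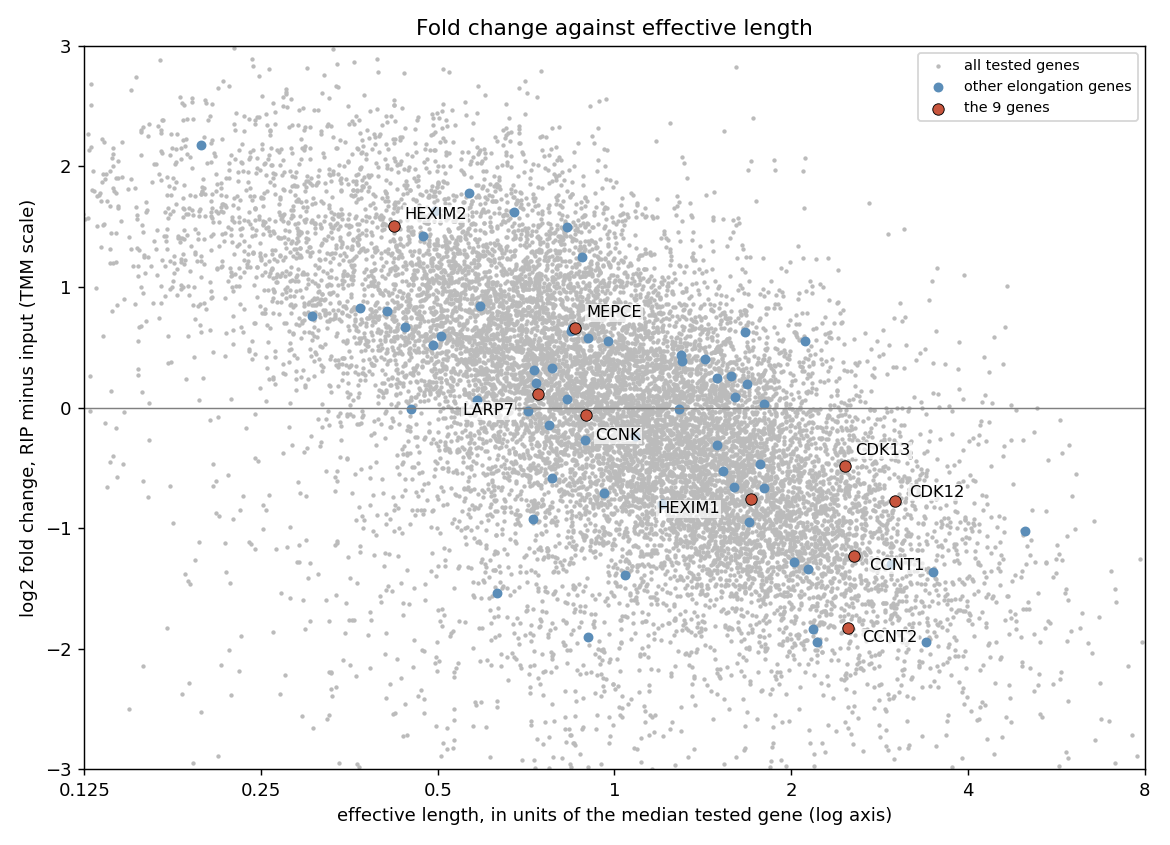
Log2 fold change of RIP over input on the TMM scale against effective length in units of the median tested gene (log axis), for all tested genes (grey), 60 other elongation genes (blue) and the 9 genes (red); 330 of 14555 tested genes lie outside the axes. The long CCNT1, CCNT2, CDK12 and CDK13 lie at lower fold changes than the short HEXIM2, and CDK13 and CDK12 lie above many genes of like length.

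Per length, the order of the genes changed between the groups. Division by length does not remove the fall of RIP over input with length. On log2(FPKM + 1) CDK12 was still at -0.69 and CDK13 at -0.41, against 0.33 and 0.45 after length correction. FPKM values, which can be set beside each other between genes, put MEPCE first in input (26.5 and 29.1 FPKM), followed by LARP7 (21.5 and 23.0). CCNT1 (16.2 and 15.7), CDK12 (15.1 and 13.9) and CDK13 (9.96 and 10.02) came next, in that order and without overlap. CCNT2 (9.32 and 8.36) and HEXIM1 (9.25 and 7.96) overlapped each other, as did HEXIM2 (3.82 and 5.34) and CCNK (4.03 and 3.19). In input the genes thus formed an order in which only these neighbours could not be separated.

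In RIP MEPCE (45.9 and 41.6 FPKM) and LARP7 (24.2 and 24.6) were again first and second. HEXIM2 (13.3 and 13.002 FPKM) stood at rank 3 in both RIP libraries, after ranks 9 and 8 in the input libraries. CDK12 followed (8.96 and 8.26), then CDK13 (7.07 and 7.44) and CCNT1 (7.18 and 6.62), which overlapped each other. HEXIM1 (5.11 and 5.20) and CCNK (3.20 and 3.81) came next, and CCNT2 was last (2.51 and 2.55).

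The summed FPKM of the 9 genes was 115.7 and 116.6 in input and 117.4 and 113.0 in RIP, so the groups overlapped in the sum while its makeup differed. MEPCE made up 23.9% ± 1.47 (SD, n = 2) of the sum in input and 37.9% ± 1.63 in RIP, and HEXIM2 3.94% ± 0.901 and 11.4% ± 0.143. The share of CCNT1 was 13.7% ± 0.421 in input and 5.99% ± 0.186 in RIP, and that of CCNT2 7.61% ± 0.625 and 2.199% ± 0.0827. LARP7 held 19.2% ± 0.810 and 21.2% ± 0.788. These shares of FPKM are not corrected for the fall of RIP over input with length. As a share of all fragments, which weighs long transcripts more, the 9 genes took 0.0741% and 0.0692% in input and 0.0319% and 0.0310% in RIP. These shares of fragments rest on library totals, and the 2 groups did not overlap.

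**Figure D3:**
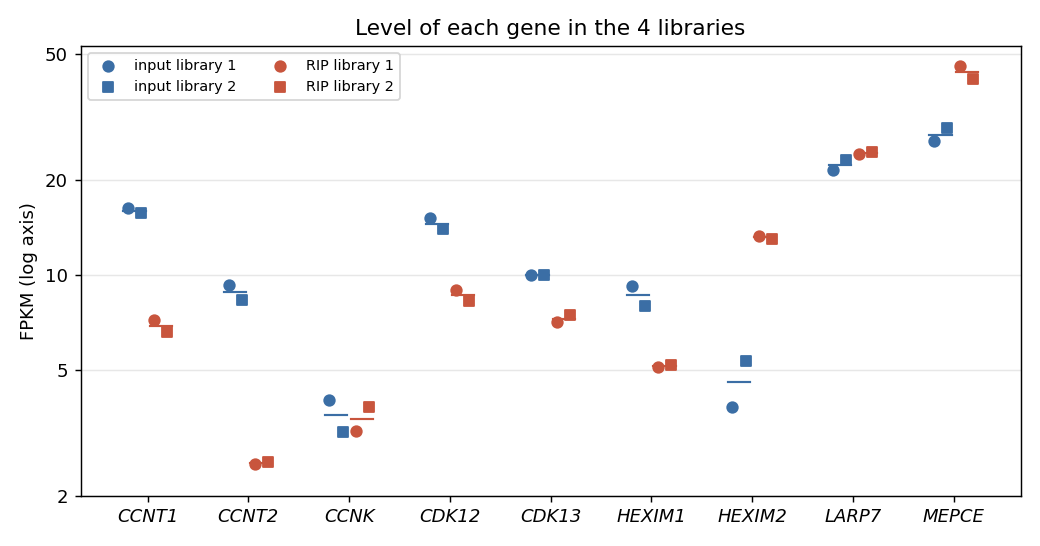
FPKM of the 9 genes (log axis) in each input library (blue) and RIP library (red), with a short line at the mean of each group of 2. HEXIM2 moves from 3.82 and 5.34 in input to 13.3 and 13.002 in RIP, while CCNT2 drops from 9.32 and 8.36 to 2.51 and 2.55. The values are not corrected for the fall of RIP over input with length.

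Ratios between paralogues within a library do not depend on how the libraries are scaled to each other. CCNT1 over CCNT2 was 1.74 and 1.88 in input and 2.86 and 2.59 in RIP, in FPKM. CDK12 over CDK13 was 1.52 and 1.39 in input and 1.27 and 1.11 in RIP. HEXIM1 over HEXIM2 was 2.42 and 1.49 in input and 0.385 and 0.400 in RIP. In FPKM the order of the HEXIM genes was thus the opposite in the 2 groups. In fragment counts HEXIM1 stayed above HEXIM2 in every library, at ratios of 9.82 and 6.06 in input and 1.56 and 1.62 in RIP. These ratios are not corrected for the fall of RIP over input with length. In none of the 3 pairs did input and RIP libraries overlap. In fragment counts the log2 ratio differed between RIP and input by 0.59 for CCNT1 over CCNT2, -0.29 for CDK12 over CDK13 and -2.27 for HEXIM1 over HEXIM2. Each of the 3 pairs had p = 0.333 by an exact permutation test (two-sided, 0.333 after Benjamini-Hochberg adjustment over the 3), the smallest p that 2 libraries a group allow, so these stand as values. The paralogues of the HEXIM pair differ 4.06-fold in effective length, those of the CDK pair 1.22-fold and those of the cyclin T pair 1.03-fold. The difference between the length-corrected log2 fold changes was -0.79 for the HEXIM pair, -0.12 for the CDK pair and 0.62 for the cyclin T pair.

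**Figure D4:**
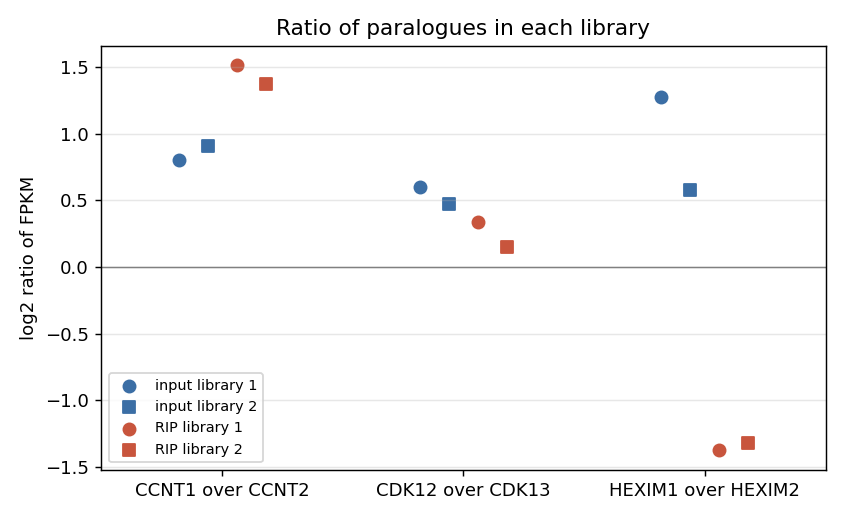
Log2 ratio of FPKM between paralogues in each input library (blue) and RIP library (red). The ratios are not corrected for the fall of RIP over input with length, and in fragment counts (not drawn) HEXIM1 lay above HEXIM2 in every library. The ratio of HEXIM1 to HEXIM2 lies above 0 in both input libraries and below 0 in both RIP libraries, that of CCNT1 to CCNT2 is higher in RIP and that of CDK12 to CDK13 lower in RIP, with no overlap between the groups.

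Other genes of the elongation pathway, from a list of 61, served as context, and 60 of them were in the table and tested. Of these 29 were higher, 21 lower and 10 on neither side, with a median log2 fold change of 0.08, beside 38.0% higher and 39.7% lower over all tested genes. With library totals 7 were higher and 43 lower, beside 17.0% and 65.5% of all genes. After length correction 23 were higher and 24 lower, beside 34.4% and 35.9% of all genes. The correction lowers the values of short genes. All 4 genes that were called higher before and lower after it were shorter than the median gene, so their length is no separate result.

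CDK9, the kinase that the cyclins T activate, had 20.8 and 17.6 CPM in input and 32.6 and 28.1 CPM in RIP. It was 1.58-fold higher with no overlap (log2 fold change 0.66, edgeR adjusted p = 4.132e-05), opposite in direction to CCNT1 and CCNT2 on the TMM scale, and at 0.42 after length correction (edgeR adjusted p = 0.001653). With library totals CDK9 was at -0.07 and not called (edgeR adjusted p = 0.5476), while CCNT1 and CCNT2 were at -1.96 and -2.56.

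The genes of the factors that hold the paused polymerase were higher in RIP on the TMM scale. Both DSIF genes and all 4 NELF genes passed (1 of 2 and 1 of 4 higher with library totals). The share called higher among all tested genes was 38.0% (17.0% with library totals). After length correction 2 of 2 DSIF genes and 2 of 4 NELF genes were called higher, beside 34.4% of all tested genes. SUPT4H1, the small DSIF subunit, was 3.10-fold higher and had a length-corrected log2 fold change of 0.89. NELFB was 2.38-fold higher and at 1.06 after correction, whereas NELFCD, 1.25-fold higher before, was at 0.01 after correction (edgeR adjusted p = 0.8697) and at -0.40 with library totals.

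The super elongation complex brings P-TEFb to the polymerase. Of its 11 genes 2 passed as higher and 6 as lower (0 and 10 with library totals). Beside these stand 38.0% higher and 39.7% lower of all tested genes (17.0% and 65.5% with library totals). AFF1, a scaffold of the complex, had a log2 fold change of -1.95 and MLLT3, a reader of acylated histones, of -0.80. They were at -0.74 and -0.61 after length correction. EAF2 was 1.69-fold higher before and at -0.42 after correction, without a call (edgeR adjusted p = 0.0578). All 3 genes of BET proteins, which bind acetylated histones, were lower, with BRD2 at -0.31 and BRD3 at -1.28. After correction BRD3 was at -0.53 and BRD2 at 0.11, without a call (edgeR adjusted p = 0.0817).

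Another 6 genes code for proteins known to bind the 7SK RNA outside its core particle. All 6 were higher on the TMM scale, beside 38.0% of all tested genes. With library totals 5 were lower and none higher, beside 65.5% and 17.0% of all genes. HNRNPA1, an hnRNP that takes up 7SK RNA freed of P-TEFb, was 1.80-fold higher, at 0.27 after length correction and at 0.12 with library totals, without a call (edgeR adjusted p = 0.09345). After length correction 5 of the 6 were higher, beside 34.4% of all tested genes.

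Genes of the PAF complex with SUPT6H and IWS1, which travel with the elongating polymerase, split into 5 lower and 2 higher of 8. With library totals 6 were lower and 0 higher, and after length correction 5 were lower and 1 higher. IWS1 was at -1.39 and stayed at -1.37 after correction. WDR61 was 1.77-fold higher before and at -0.19 after correction (edgeR adjusted p = 0.0203). Of 7 genes for TFIIS, elongin and FACT 5 passed as higher and 2 as lower (3 of each with library totals). After length correction 5 were higher and 1 lower. Beside both sets of counts stand 38.0% higher and 39.7% lower of all tested genes on the TMM scale. With library totals these shares were 17.0% and 65.5%, and after length correction 34.4% and 35.9%. TCEB2, elongin B, was 4.52-fold higher and at 0.71 after correction, and TCEA1, a TFIIS gene, was at -0.71 before and -0.79 after.

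**Figure D5:**
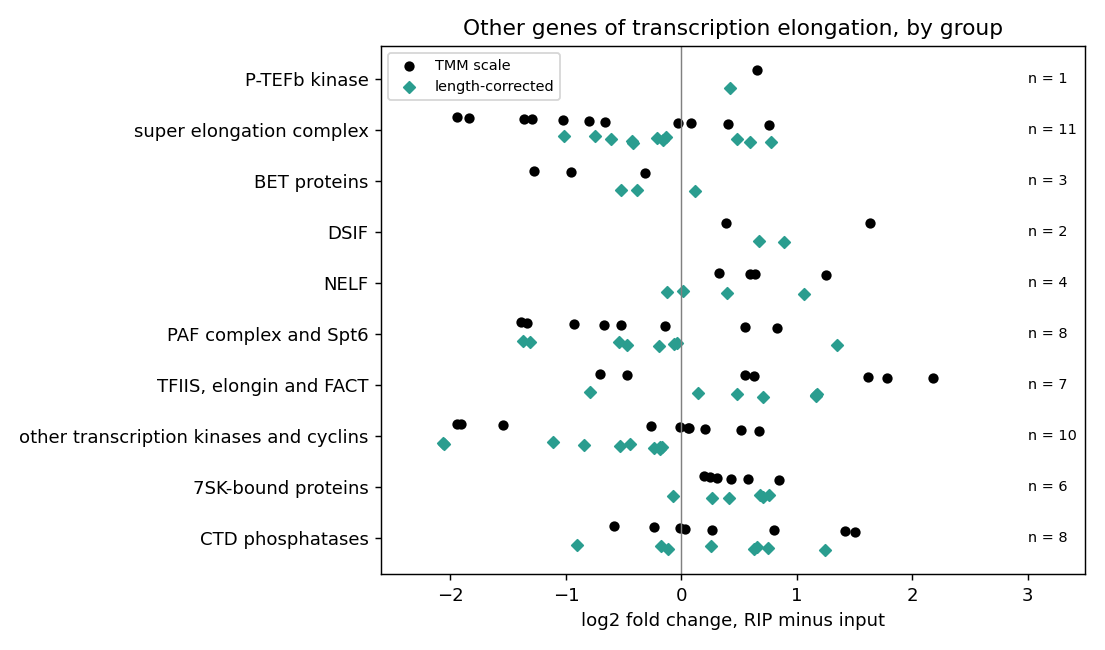
Log2 fold change of RIP over input for the 60 other elongation genes by group, on the TMM scale (black circles) and after length correction (green diamonds), with the number of genes in each group at the right. On the TMM scale all DSIF, NELF and 7SK-bound protein genes lie above 0 and all BET genes below 0. After correction 1 NELF, 1 7SK-bound protein and 1 BET gene lie on the other side of 0. With library totals (not drawn) 1 DSIF gene, 1 NELF gene and 5 genes of 7SK-bound proteins were called lower. So were 65.5% of all tested genes.

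For each of the 9 genes the elongation gene with the most similar pattern was found as the smallest distance between the 4 log2 CPM values, each gene centred on its mean. LARP7 was closest to MLLT1 (distance 0.0307 on the log2 scale), MEPCE to MNAT1 (0.0641) and CCNT1 to AFF3 (0.0674). CDK13 was closest to PPM1G (0.112), CCNT2 to CCNL1 (0.15), CDK12 and HEXIM1 both to EAF1 (0.168 and 0.17), HEXIM2 to PPP1CA (0.246) and CCNK to CDK11A (0.289). With 4 libraries in 2 groups this distance mostly reflects the fold change, and length separated several of these pairs. After length correction CCNL1 was at -2.07 against -0.88 for CCNT2, and MLLT1 at 0.59 against -0.25 for LARP7. PPM1G was at -0.90 against 0.45 for CDK13, MNAT1 at -0.19 against 0.44 for MEPCE and EAF1 at -0.16 against 0.33 for CDK12. CCNK and CDK11A have nearly the same effective length, 0.896 and 0.892 times the median gene, so length did not separate them. They were at -0.06 and -0.27 before correction and at -0.23 and -0.44 after. The pairs of CCNT1, HEXIM1 and HEXIM2 stayed close, as with PPP1CA at 0.63 against 0.61 for HEXIM2.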

How the data were processed

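RNA was measured by strand-specific sequencing after ribosomal RNA depletion, in 2 input and 2 RIP libraries grouped by their titles. The submitters' processing notes name hg19, Cuffdiff 2.2.1, TopHat2 2.0.13, Bowtie2 2.2.6 and cutadapt 1.5. The annotation and strand setting were not given in the sources used here. Per the file headers, the authors' estimated counts are fragments per gene before scaling, the authors' scaled signal is these fragments after scaling (by the values, 1 factor per library), and the deposited FPKM values are per length. The table numbers libraries from 0, and 0 was taken as replicate 1.

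Counts were rounded and genes kept by filterByExpr (minimum count 10, total 15). The test was edgeR 4.0.16's quasi-likelihood test under R 4.3.3 (TMM, glmQLFit, glmQLFTest, group only, Benjamini-Hochberg at 0.05). It was run on simulated data with few changed genes and no trend with length. That check does not cover the many calls and the length trend of the real libraries. The input libraries had TMM factors of 1.30 and 1.28, the RIP libraries of 0.777 and 0.776. SE is the log2 fold change over the square root of F. The length offset is a lowess (span 0.3) of log2 counts on log2 effective length per library. Fragments are not unique molecules, and depth bounds counting error only. The 9 genes and the pathway list were chosen with earlier results of these data known. Named pathway genes are the most abundant of each group in input and the largest called change in each direction, plus the nearest pattern. DESeq2 1.42.0, limma 3.58.1 on log2 FPKM, other scalings and left-out libraries were alternatives.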

Additional observations from a re-analysis of the deposited data

How the results depend on the processing

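For the 9 genes, direction and call were kept under DESeq2, limma on log2(FPKM + 1) and log2(FPKM + 0.1), no count filter, library sizes without the 10 most abundant genes, and the replicate number as a block. With library totals 1 gene was higher (2 on the TMM scale), LARP7 was at -0.62 and MEPCE at -0.072, the pathway list had 7 higher and 43 lower genes, and all genes 2481 and 9539. After length correction 4 of the 9 were higher and 3 lower, CDK12 was at 0.33, CDK13 at 0.45 and LARP7 at -0.25, and the same values came out with library totals and the length offset together, an alternative chosen after seeing the data (4 higher, 3 lower). The median of the 9 minus that of all genes (-0.45) was -0.15 after length correction on either scale, -0.39 without a count filter, -0.41 with log2(FPKM + 1), and -0.47 to -0.39 with single libraries left out. CCNK ranged from -0.21 to 0.13 with single libraries left out, turning to 0.13 without the first input library and 0.07 without the first RIP library; the cause was not tested. No block pairing could be decided from 2 pairs (correlation of same-numbered deviations 0.04 over 14555 genes); with the replicate block the 9 genes kept 2 higher and 5 lower.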

Other observations

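Among other kinases and cyclins of transcription, both cyclin L genes, whose products act with CDK11 in splicing, were lower in RIP: CCNL1 had 50.4 and 49.7 CPM in input and 12.9 and 13.8 CPM in RIP, and CCNL2 109.9 and 104.8 CPM against 39.1 and 34.6 CPM. Their length-corrected log2 fold changes were -2.07 and -2.06, against -0.88 for CCNT2 (edgeR adjusted p = 2.966e-12, 7.965e-13 and 3.351e-08). Of the 10 genes of this group, 3 were higher and 3 lower on the TMM scale, with MNAT1 of the CDK-activating kinase 1.59-fold higher and CDK19 at -1.95. After length correction 9 of the 10 were lower and none higher, beside 35.9% and 34.4% of all tested genes. With library totals 9 were lower and none higher, beside 65.5% and 17.0% of all genes. A further 8 genes code for phosphatases that act on the polymerase tail or on the 7SK particle. Of these 4 passed as higher and 2 as lower (2 and 5 with library totals). Beside both groups stand 38.0% higher and 39.7% lower of all tested genes on the TMM scale. CTDSP1 was 2.83-fold and PPP1CA 2.68-fold higher, and PPM1G was at -0.59 on the log2 scale and at -0.90 after length correction.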
